A study of Mus musculus with 6 samples.

Results

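T-bet peaks were examined at the genes Tnfaip3 and Tnip1, which encode partner proteins that restrain NF-kB signalling. The peaks are those that overlapped mm9 chr10:18600000-18850000, the Tnfaip3 window, or mm9 chr11:54680000-54900000, the Tnip1 window, which also takes in its neighbour Anxa6. They numbered 19 of the 8925 peaks in the 3 deposited lists. None came from the T-bet knockout (KO) library, 14 came from wild-type (WT) replicate 1 and 5 from WT replicate 2. The windows were chosen from the positions and scores of these same lists. The number of peaks in them, their scores and their overlap between lists are therefore a description and were given no test.

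The series profiled T-bet, encoded by Tbx21, by ChIP-seq, the sequencing of DNA fragments precipitated with an antibody, in induced regulatory T cells (iTreg cells), which are CD4 T cells driven to a regulatory fate in culture. The KO group was 1 library from T-bet-KO cells, and the WT group 2 libraries; how the knockout was made is not in the labels. All groups were labelled Balb/c and shared the protocol: naive CD4 cells of mice aged 4 to 10 weeks were stimulated through CD3 and CD28 (10 µg/ml of each plate-bound antibody) and cultured for 7 days with TGF-β1 at 33 ng/ml and IL-2 at 20 ng/ml. The same rabbit anti-T-bet serum was used in KO and WT cells, and the loss of T-bet in the KO cells could not be checked from the lists. The lists held 78 peaks in the KO library, 7996 in WT replicate 1 and 851 in WT replicate 2. Depth per library is unknown, peak lists carry no expression values with which the cell type could be checked, and the labels do not say whether the WT libraries came from separate mice or cultures.

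NF-kB is switched on by antigen, costimulatory and inflammatory receptors through chains of ubiquitin that assemble the signalling complexes. Tnfaip3 encodes A20, a ubiquitin-editing enzyme that takes these complexes apart, and Tnip1 encodes ABIN-1, a ubiquitin-binding adaptor that binds A20 and helps to bring it to its targets. Both genes are themselves induced by NF-kB, so they act as feedback brakes, and A20 is known to limit the activation of T cells. Anxa6 encodes annexin A6, a protein that binds membrane phospholipids in the presence of calcium. T-bet is a T-box factor that directs the T helper 1 programme and is also made by a subset of regulatory T cells.

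The sequences before the starts of the 2 brake genes are shown because both genes are known NF-kB targets and these stretches hold their promoters. They were taken from the RefSeq promoter table for GRCm38.p6, in which 2 of the 3 genes were matched; Anxa6 had no entry. Each run gives the 250 bases before the start, 5′ to 3′ on the gene's strand, which is the minus strand for both. For Tnfaip3, which has more than 1 start in the table, the outermost is shown. Capitals mark matches on either strand to GGG, any 5 bases and then CC, a loose form of the NF-kB motif that was chosen after the sequences had been seen, and overlapping matches run together.
Tnfaip3 (GRCm38.p6, chr10:19015411-19015660, minus strand): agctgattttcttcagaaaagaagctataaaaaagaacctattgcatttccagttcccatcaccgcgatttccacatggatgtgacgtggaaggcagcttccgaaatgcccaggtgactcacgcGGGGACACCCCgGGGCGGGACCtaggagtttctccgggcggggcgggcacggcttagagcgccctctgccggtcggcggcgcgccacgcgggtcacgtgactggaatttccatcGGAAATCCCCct
Tnip1 (GRCm38.p6, chr11:54962941-54963190, minus strand): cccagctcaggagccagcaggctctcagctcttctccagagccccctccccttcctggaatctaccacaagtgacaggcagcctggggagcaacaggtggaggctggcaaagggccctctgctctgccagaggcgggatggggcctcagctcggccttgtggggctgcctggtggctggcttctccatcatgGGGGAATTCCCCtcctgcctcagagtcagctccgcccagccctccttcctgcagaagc
The stricter form, GGGA, any 4 bases and then CC, matched in both, as GGGACACCCC at bases -125 to -116 before the Tnfaip3 start and as GGGAATTCCC at bases -57 to -48 before the Tnip1 start. It was found in 17.6% of all 32851 promoters of the table and the loose form in 45.8%. The T-box core GGTGTGA was in neither stretch on either strand and was in 3.33% of all promoters. The peaks are placed on mm9, another build, so these letters say nothing of which peak lies at a promoter.

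No T-bet KO peak lay in either window. The Tnfaip3 window held 10 peaks in WT replicate 1 and 4 in WT replicate 2, and the Tnip1 window held 4 peaks in replicate 1 and 1 in replicate 2. Each of the 5 replicate 2 peaks overlapped a replicate 1 peak by at least 1 bp, where 85.4% of all replicate 2 peaks did so. Of the 14 replicate 1 peaks, 5 overlapped a replicate 2 peak, where 9.50% of all replicate 1 peaks did so. The sites in both WT lists and not in the KO list therefore numbered 4 at Tnfaip3 and 1 at Tnip1, and such sites were 9.08% of the replicate 1 list.

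**Figure D1:**
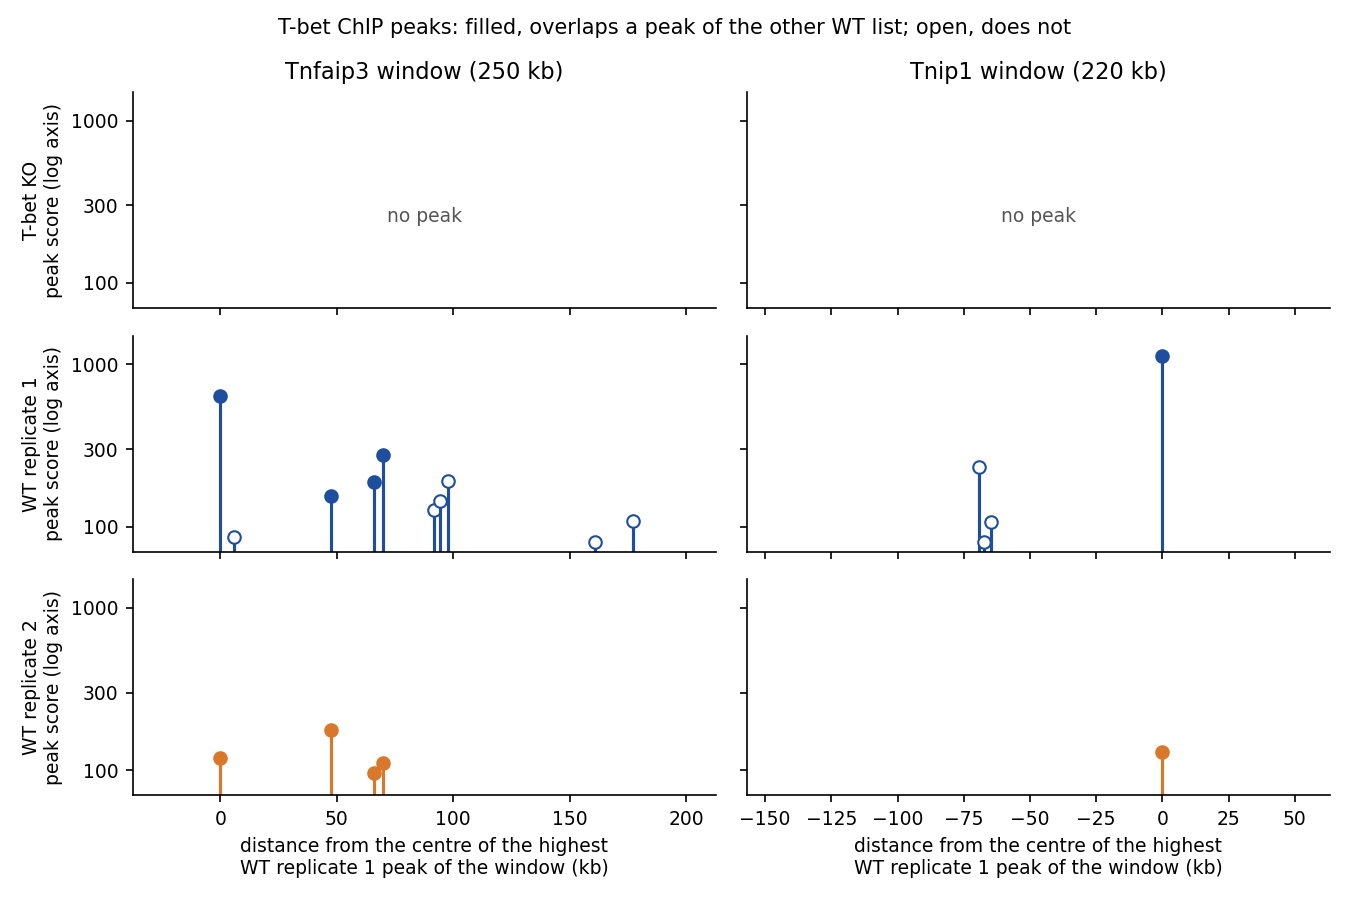
Peaks of each library (rows) in the Tnfaip3 and Tnip1 windows (columns), with the distance from the centre of the highest WT replicate 1 peak of the window in kb on the horizontal axis and the peak score on a log axis. Filled points overlap a peak of the other WT list, and open points do not; heights can be compared within a row only. The KO row is empty, and all 5 replicate 2 peaks overlap a replicate 1 peak.

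The empty KO row has to be read against the shortness of that list. Over the whole lists, 0.550% of replicate 1 peaks and 5.41% of replicate 2 peaks had a KO counterpart, so a site without one was the usual case. The nearest KO peak to the highest Tnfaip3 peak lay 21.3 Mb away at chr10:39978204-39978720, and the nearest to the highest Tnip1 peak 25.0 Mb away at chr11:79826846-79827113. Chromosome 10 held 3 KO peaks in all and chromosome 11 held 12. Signal below the peak threshold in KO cells was not measurable from the lists.

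The 4 shared Tnfaip3 sites stood together at the low-coordinate side of the window. They are called A to D here in order of position and spanned 70.3 kb in replicate 1. Tnfaip3 is read on the minus strand, and in the GRCm38 annotation its protein-coding neighbours are Perp on the low-coordinate side and Olig3 on the other. The sites therefore lay towards the Perp side of the window, the direction in which Tnfaip3 is transcribed. Their positions against its exons, introns and start were not analysed here.

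Site A was the strongest Tnfaip3 site in WT replicate 1. It lay at chr10:18637158-18637533 in replicate 1, with no peak in the KO list, a score of 635.20 in replicate 1 and a score of 119.63 in replicate 2. The score is the authors' own value from the peak caller, has no stated scale and is used to rank peaks within a list. Site A ranked 97th of 7996 peaks in replicate 1, in the top 1.21%, and 356th of 851 in replicate 2, in the top 41.8%. The replicate 2 peak, 334 bp wide, lay wholly inside the replicate 1 peak of 376 bp, and their midpoints coincided.

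Site B had the opposite standing. It lay at chr10:18684578-18684803 in replicate 1 and was absent from the KO list, with a score of 155.29 in replicate 1 and 175.89 in replicate 2. Site B was the lowest of the 5 shared sites in replicate 1, at rank 2178, and the highest of them in replicate 2, at rank 162. Its WT peaks also had the largest midpoint offset of the 5 sites, at 58 bp. They shared 219 bp, which was most of the replicate 1 peak of 226 bp, and the replicate 2 peak was wider, at 328 bp.

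Sites C and D were close neighbours, 3.53 kb apart in replicate 1 and 3.60 kb in replicate 2. Site C, at chr10:18703377-18703639, had no KO peak and scored 187.11 in replicate 1 and 95.69 in replicate 2, the lowest replicate 2 score of the windows. Site D, at chr10:18707171-18707476, had no KO peak and scored 275.19 in replicate 1 and 110.39 in replicate 2. Site D ranked above site C in both WT lists, at ranks 736 and 1603 in replicate 1 and at ranks 410 and 509 in replicate 2. The midpoints of the WT peaks were 2.5 bp apart at site C and 33.5 bp apart at site D.

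The Tnip1 window had a single shared site, E, and it was the strongest of the 5 in replicate 1. It lay at chr11:54836514-54837048, was absent from the KO list, and scored 1120.74 in replicate 1 and 130.25 in replicate 2. Its rank was 23 of 7996 in replicate 1, in the top 0.288%, and 299 of 851 in replicate 2, in the top 35.1%. With widths of 535 bp in replicate 1 and 473 bp in replicate 2, site E was the widest peak of the windows in each WT list, and its peaks shared 470 bp. Tnip1 is also on the minus strand, and its protein-coding neighbours in GRCm38 are Gpx3 and Anxa6, with Anxa6 on the high-coordinate side. Site E was the peak of the window nearest to that side, and whether it lies within Anxa6 or between the genes was not analysed here.

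The order of the 5 sites differed between the WT libraries. By replicate 1 score it was E, A, D, C and B, and by replicate 2 score it was B, E, A, D and C. The change was in the place of site B, since the other 4 kept their order. Among the 760 replicate 1 peaks with a replicate 2 counterpart, sites E and A ranked 7th and 43rd, D 358th, C 510th and B 562nd. Among the 727 replicate 2 peaks with a replicate 1 counterpart, site B ranked 156th, E 287th, A 337th, D 381st and C 463rd. Each site has 1 value per library, so none of these differences in rank could be set against a replicate error.

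**Figure D2:**
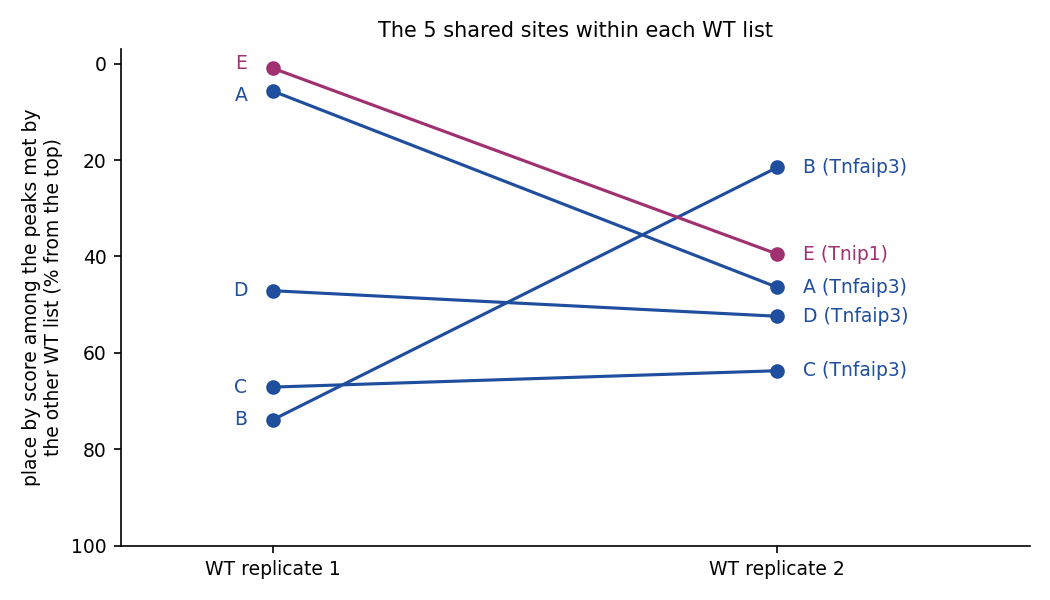
Place of the 5 shared sites among all peaks that met a peak of the other WT list (760 in replicate 1 and 727 in replicate 2), in percent from the highest score at the top of the axis. Site E moves between 0.921% and 39.5%, site A between 5.66% and 46.4%, and site B between 73.9% and 21.5%, while C and D keep similar places.

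The remaining 9 replicate 1 peaks had no counterpart in the KO list or in replicate 2. Their median score was 108.01, against 103 for all 7236 replicate 1 peaks that did not recur, whereas the 5 shared peaks had a median of 275.19, against 261 for all 760 replicate 1 peaks that recurred. The unshared peaks were narrower, with a median width of 168 bp, against 306 bp for the shared ones. Over the whole list the medians were 169 bp for unshared and 311 bp for shared peaks, so the windows had the same pattern as the list. In all, 10 of the 14 replicate 1 peaks scored above the median of their list, which was 107.66. They included all 5 shared peaks, with scores of 155.29 and above, whereas the median of the 9 unshared peaks was close to that of the list. The windows were chosen with these scores known, so this count was given no test.

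The tightest run of 3 replicate 1 peaks was taken in each window, and any window with 3 peaks has such a run. How often runs this short occur over the list was not tested. At Tnip1 the run was all 3 unshared peaks of the window. In both windows the peaks of the run were unshared. At Tnfaip3 they covered 6.23 kb, starting 21.7 kb beyond site D, at chr10:18729174-18729405 with a score of 126.07, chr10:18731719-18731886 with a score of 143.94 and chr10:18735094-18735402 with a score of 191.91. Their scores thus increased with position, and the last was above that of the shared sites B and C in the same list. At Tnip1 they covered 4.58 kb, 64.4 kb before site E, at chr11:54767555-54767847 with a score of 232.18, chr11:54769532-54769676 with a score of 79.86 and chr11:54771940-54772137 with a score of 106.54. Here the outermost peak was the highest, and it too scored above sites B, C and the Tnfaip3 run. The other 3 unshared Tnfaip3 peaks scored 80.14 to 108.01: the one nearest to site A lay 5.64 kb from it, and the other two lay 62.5 kb or more beyond the run.

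**Figure D3:**
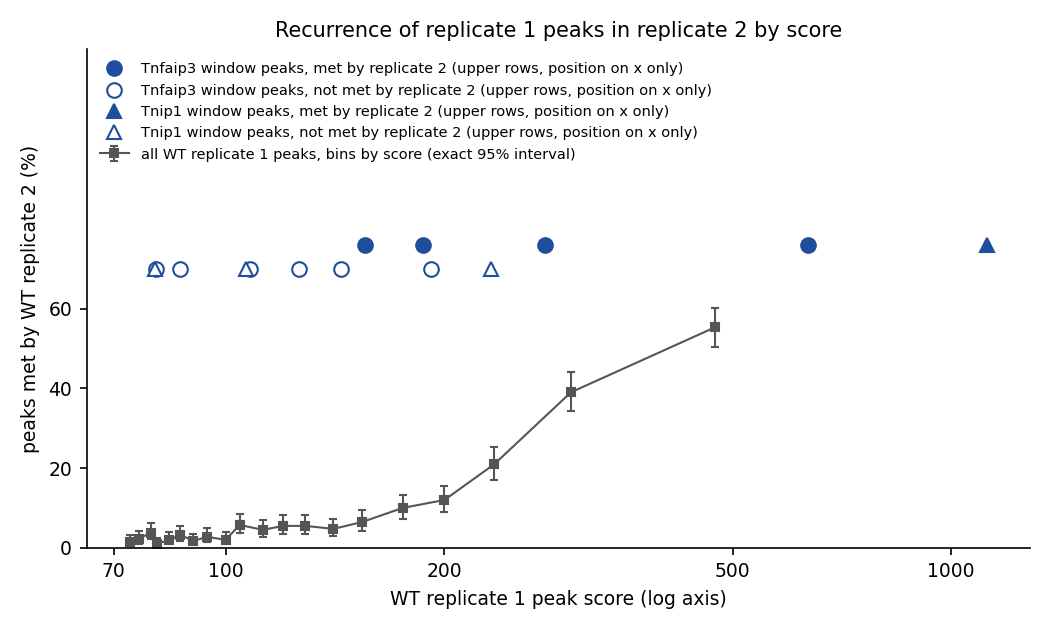
Share of WT replicate 1 peaks that overlapped a replicate 2 peak, in percent, against the replicate 1 score on a log axis, in bins of 400 peaks with exact 95% binomial intervals (squares). The window peaks are drawn above the curve at their own scores only, circles for Tnfaip3 and triangles for Tnip1, filled where a replicate 2 peak was met; the 5 filled points lie at scores of 155.29 and above, among 2 open ones at 191.91 and 232.18.

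Recurrence in replicate 2 depends on the replicate 1 score, so each peak was set beside the replicate 1 peaks closest to it in score, up to 200 above and 200 below. Near site E, 59.0% of these neighbours were met by replicate 2, and near site A 58.4%. The share was 31.2% near site D, 9.75% near site C and 6.75% near site B. Sites B and C thus stood at scores at which few peaks of the list recurred. The windows were chosen with these lists in view, so whether recurrence in them is unusual was not tested. Near the 2 highest unshared peaks the share was 19.5% for the Tnip1 peak of score 232.18 and 11.2% for the Tnfaip3 peak of score 191.91, and absence from replicate 2 was thus the usual outcome at their level. For the other 7 it was between 1.00% and 6.50%. A KO counterpart was found for 0.250% to 3.15% of the neighbours of the 14 peaks.

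The windows were set among tiles of their own length. The windows were placed with their peaks known, whereas the tiles lay on a fixed grid that can split a group of peaks. The shares of tiles are therefore not chance levels for the windows. Of 10523 consecutive tiles of 250 kb over the 19 autosomes and X, 55, or 0.523%, held at least 10 replicate 1 peaks, and 22, or 0.209%, held at least 4 shared sites. Of 11953 tiles of 220 kb, 626, or 5.24%, held at least 4 replicate 1 peaks and 519, or 4.34%, at least 1 shared site. The Tnip1 number depends on the window's limits, since widening the window by 50 kb on each side took in 7 replicate 1 peaks, against 4. Most tiles were empty: 68.6% of the 250 kb tiles and 71.1% of the 220 kb tiles had no replicate 1 peak. With a 250 kb window centred on each of the 726 shared sites of the genome, 112, or 15.4%, had at least 4 shared sites in it, and 349, or 48.1%, had only the site itself. With a window of 220 kb, 359 of the 726 sites, or 49.4%, had only the site itself, as site E did. Each site of a group was counted, so these are numbers of sites and not of loci. Replicate 1 peaks that met the same replicate 2 peak counted as separate sites. A group like that at Tnfaip3 was seen around a minority of shared sites but was not restricted to this locus.

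**Figure D4:**
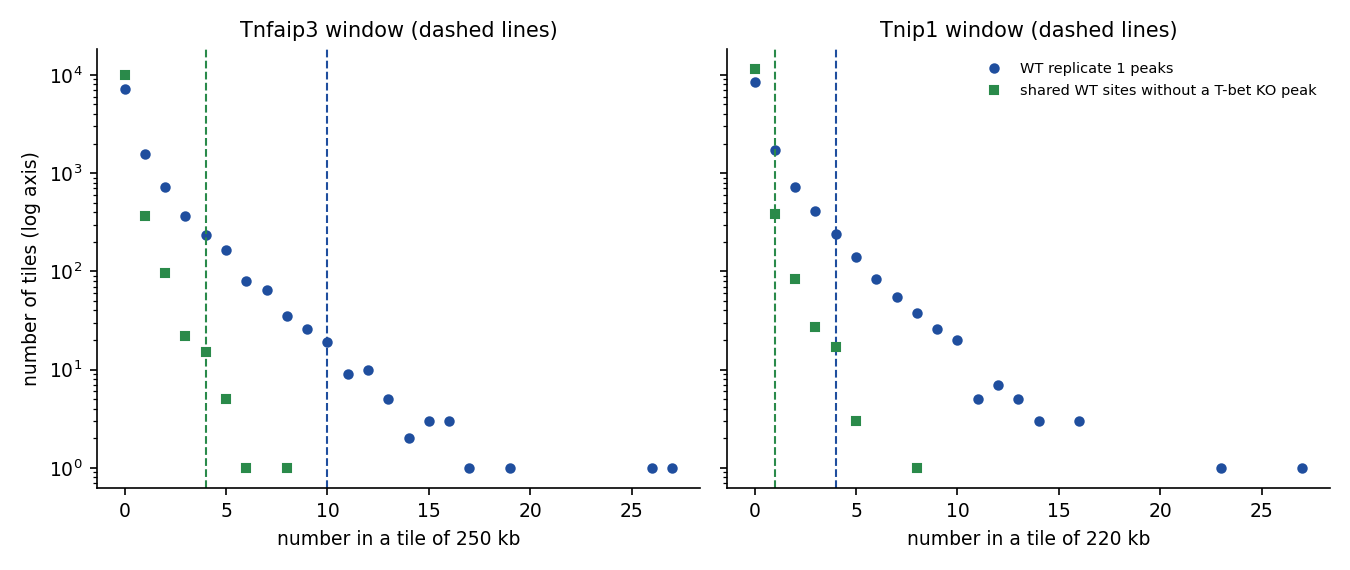
Number of tiles (log axis) that hold a given number of WT replicate 1 peaks (circles) or shared sites without a KO peak (squares), for tiles as long as the Tnfaip3 window (left) and the Tnip1 window (right). Dashed lines mark the windows' own numbers, 10 peaks and 4 shared sites at Tnfaip3 and 4 peaks and 1 shared site at Tnip1.

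The window limits cut through different surroundings. Around the Tnfaip3 window the next replicate 1 peaks, with scores of 124.60 and 114.11, lay 19.03 kb below and 562 kb above it, and the next replicate 2 peaks lay 4.79 Mb below and 588 kb above. Around the Tnip1 window the next replicate 1 peaks, with scores of 178.71 and 191.91, were only 5.57 kb below and 15.9 kb above, and the next replicate 2 peaks were 5.66 Mb and 6.52 Mb away. The nearest replicate 1 peaks outside the windows had no replicate 2 counterpart. The replicate 2 peaks A to D and E were therefore separated from other replicate 2 peaks by more than 0.588 Mb. Replicate 1 peaks continued close to the Tnip1 window on both sides and close to the Tnfaip3 window on its low-coordinate side.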

How the data were processed

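The deposited data were 3 peak lists, each from 1 ChIP library, so replicates had not been pooled. Per the submitters' processing notes, the tools were CASAVA, Bowtie2 and MACS 1.4, with the build mm9; their settings and the control of each call are not stated in the sources. The score deposited by the authors for each peak has no stated scale and was never below 70.10. The 3 input libraries were not analysed here. Positions count from 1.

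Windows, peaks and gene lists were chosen with earlier results of these data known. Named peaks were all replicate 2 and KO peaks, shared replicate 1 peaks, and the 3 highest unshared replicate 1 peaks per window. Overlap needed 1 bp. Tiles ran from position 1 to the last replicate 1 peak of a chromosome and counted peak midpoints. Intervals are exact (Clopper-Pearson) at 95% and cover counting error over peaks only. No test over samples was made, because the lists give no value for a library at a site where it has no peak. The deposited names of the KO and replicate 2 lists share a number; if it marks a batch, replicate 1 and its batch cannot be told apart. Peak sequences, their motifs and the pathway list need an mm9 reference and were not analysed here. Overlap counting was tested on simulated data. Computation was in Python 3.11.15 with numpy 2.4.6 and scipy 1.17.1, and figures were drawn with matplotlib 3.10.9.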

Additional observations from a re-analysis of the deposited data

How the results depend on the processing

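Of 88 alternatives of 22 results, 84 were equal to the reported value or within 1.5 times of it. These comprised reciprocal overlap of 50%, midpoints within 200 bp, scores of at least 100, merging of peaks within 500 bp, KO peaks extended by 1 kb, tiles shifted by 0.5 of their length, windows changed by 50 kb on each side, and single WT replicates. Some of the 84 could not have moved, so this number is not a measure of robustness. A KO count of 0 cannot change under a higher score threshold, merging, narrower windows or the loss of a WT list. The peak count of a WT list does not depend on the other WT list. The nearest KO peaks lay 21.3 and 25.0 Mb from the highest peaks, so an extension by 1 kb could not reach a site. The exceptions to the range of 1.5 times were as follows. Widening raised the replicate 1 peaks of the Tnip1 window to 7, against 4. Narrowing lost site A, so the best replicate 1 rank at Tnfaip3 became 736, against 97. With the KO filter but without replicate 2, the sites numbered 10 at Tnfaip3, against 4, and 4 at Tnip1, against 1. Within the range, the sites without replicate 1 stayed at 4 at Tnfaip3 and 1 at Tnip1, so replicate 2 sets their number. Also within the range, site C left the shared set with scores of at least 100, and the set became 3 at Tnfaip3. The peak motif alternative was not run for want of an mm9 genome. No paired analysis was possible because no result comes from a test over samples, and the input libraries that carry the WT replicate numbers were not used here. The loose NF-kB motif was added after the sequences were seen. Depth, which is unknown, limits what absence from the KO and replicate 2 lists can show.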
